A study of Saccharomyces cerevisiae with 15 samples.

Results

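HXT1 to HXT7 encode the main hexose transporters of Saccharomyces cerevisiae, and all 7 genes were followed here across a series of initial mannose concentrations. They were chosen by name, as the rows of the expression table whose YG_S98 array annotation gives one of these symbols. This found 7 probe sets, 1 for each gene, of 9335 on the array. Each symbol stands alone in the annotation of its probe set, and all 7 passed the filter on low signal. The 15 arrays measured total RNA of a PMI40 knockout of the strain CEN.PK113-7A. All cultures were aerated batches on mineral medium with 15 g/L glucose, and all were sampled at 6 h. They differed in initial mannose, at 0.75, 1, 1.5, 3 or 5 g/L, with 3 arrays for each concentration. Growth and the glucose and mannose left at 6 h are not known here and may differ between the groups. PMI40 encodes mannose 6-phosphate isomerase, so the strain cannot make mannose 6-phosphate from fructose 6-phosphate and depends on mannose in the medium. Every group carries the deletion, and no parent strain was analysed here.

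Hexose transporters of this family carry glucose, fructose and mannose across the plasma membrane by facilitated diffusion. The cell changes the set it makes with the sugar supply. HXT1 and HXT3 are low-affinity carriers of cells with plentiful glucose, HXT2 and HXT4 have higher affinity and are induced by low glucose, and HXT6 and HXT7 are high-affinity carriers that abundant glucose represses. HXT5 is known from slow-growing and starved cells. The membrane sensors Snf3 and Rgt2 act on HXT promoters through Mth1, Std1 and the repressor Rgt1, and Mig1 and Mig2 repress genes when glucose is abundant.

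HXT1 (YHR094C) lies between HXT4 (YHR092C) and HXT5 (YHR096C), with AHT1 also lying between HXT1 and HXT4. HXT3 (YDR345C), HXT6 (YDR343C) and HXT7 (YDR342C) form another cluster, with YDR344C between HXT3 and HXT6. HXT2 (YMR011W) has no other HXT gene within 2 genes on either side. HXT6 and HXT7 are near-identical genes, and their probe sets are of the kind marked f, whose probes match several members of a family. Their signals cannot be separated from each other.

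Signals are the deposited linear intensities, and levels are compared here only within a probe set. Background was set at 13.5, the 95th percentile of 13 negative control probe sets. Median signals were 23.3 to 27.1 on the 12 arrays from 1 g/L up and 20.1 to 22.1 on those at 0.75 g/L, and the 3'/5' signal ratio of the ACT1 controls was 1.37 to 2.36 over all arrays. The array records place the arrays in 4 fluidics runs by station and time of day. Run A comprised the whole 0.75 g/L group with 1 of the 3 g/L arrays, run B the 2 others of the 3 g/L group with 2 of the 5 g/L group, run C the whole 1.5 g/L group with 1 of the 5 g/L arrays, and run D the whole 1 g/L group. For 5 arrays, all of run A and 1 of run B, the fluidics step is recorded as uncompleted. Nothing in the labels says that replicate arrays stem from different cultures, and each concentration has 1 sample code in the records. The p-values therefore reflect array-to-array spread, which may be technical. PMI40 itself read 113.1 to 270.0 over the arrays. The position of its probes relative to the deleted part is not known here, so this signal does not check the labels.

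The HXT genes changed in different directions and over different parts of the mannose range. HXT1 rose over most of the range and HXT6 and HXT7 fell over most of it. HXT2 and HXT3 rose between 0.75 and 1 g/L, HXT5 was lowest at 1 g/L and highest at 5 g/L, and HXT4 passed in 1 of the 10 pairs of concentrations. In an F-test over the 5 concentrations (limma, Benjamini-Hochberg adjustment over the 6957 probe sets tested, adjusted p under 0.05), 6 of the 7 differed, all but HXT4. Of all probe sets tested 46.5% passed the same test. Signals come from whole cultures, so a change in every cell and a change in the share of cells that make a transcript cannot be told apart.

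**Figure D1:**
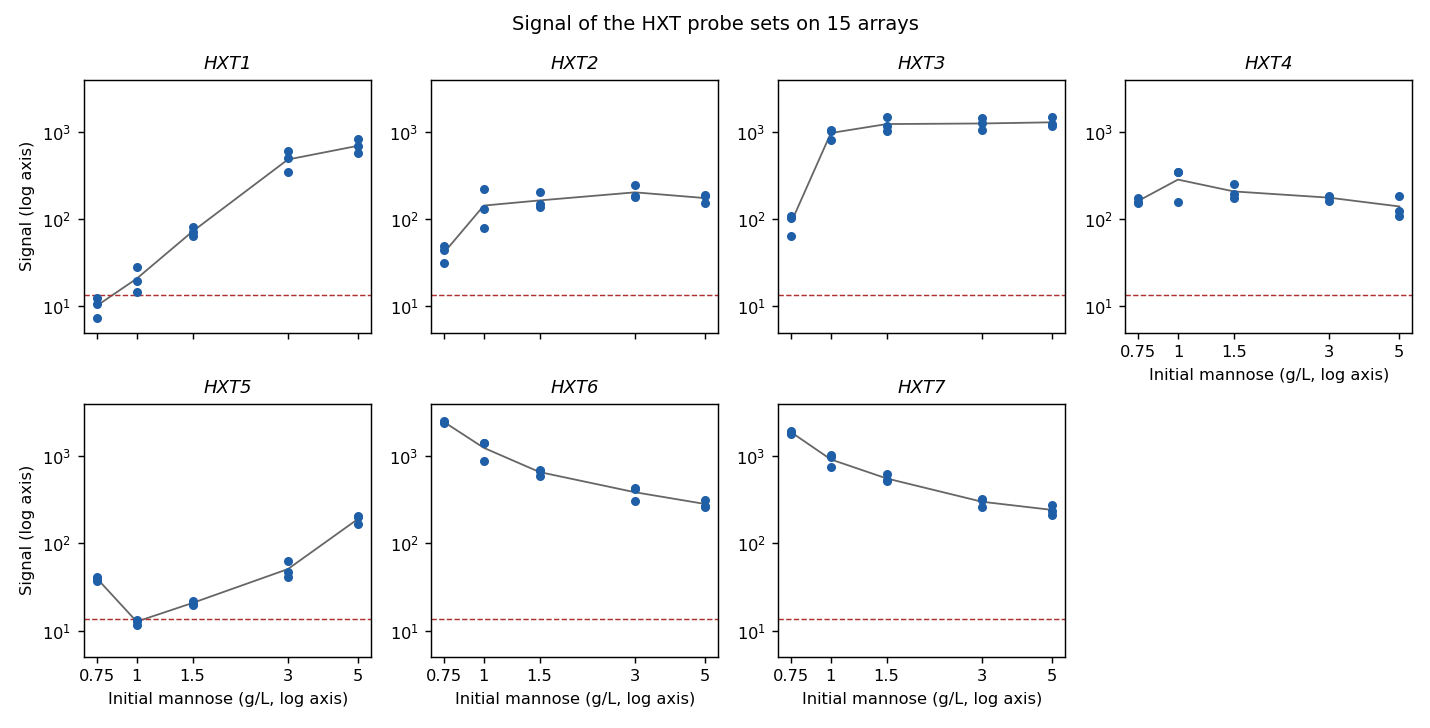
Signal of each HXT probe set (vertical axis, log scale) against initial mannose (horizontal axis, g/L, log scale), with a point for each of the 15 arrays and a line through the 5 group means. The dashed line is the background of 13.5. HXT1 lies below it on all 3 arrays at 0.75 g/L and reaches 580.5 to 827.2 at 5 g/L, while HXT6 and HXT7 are highest at 0.75 g/L.

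HXT1, the low-affinity carrier of high glucose, had signals of 7.4, 12.5 and 10.8 with 0.75 g/L mannose, all within background. They were 14.6, 19.7 and 28.3 with 1 g/L, 81.7, 71.2 and 64.6 with 1.5 g/L, 346.3, 506.4 and 604.3 with 3 g/L, and 687.3, 827.2 and 580.5 with 5 g/L. The arrays of each concentration up to 3 g/L lay wholly below those of the next, and only the 3 and 5 g/L arrays overlapped. The mean was 698 ± 124 at 5 g/L and 10.2 ± 2.6 at 0.75 g/L (SD, n = 3 each), at least 51.2-fold higher when the lower group is set to background (adjusted p = 3.78e-09). The step of 1 over 0.75 g/L was at least 1.49-fold (adjusted p = 0.0102). It was the least firm of the HXT1 steps that passed: it no longer passed without 0.75 g/L replicate 1 (adjusted p = 0.0527), without 1 g/L replicate 3 (0.0507) or with the fluidics station as a block (0.377). The steps of 1.5 over 1 g/L (1.84 ± 0.27 log2, SE, adjusted p = 0.0058) and of 3 over 1.5 g/L (2.71 ± 0.27, adjusted p = 9.99e-05) passed in all 27 alternative settings, none of which separates 1 g/L from its run. That of 5 over 3 g/L did not pass (0.55, 95% confidence interval -0.04 to 1.13, adjusted p = 0.597).

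The slope of HXT1 on log2 mannose was 2.36 ± 0.13 log2 per doubling (SE, adjusted p = 9.75e-09). It takes the 0.75 g/L signals, all within background, at their values, and without that group it was 2.26 (adjusted p = 4.77e-07). In run A the 3 g/L array had a signal of 346.3, against 7.4 to 12.5 on the 0.75 g/L arrays. In run C the 5 g/L array stood 3.01 above the 1.5 g/L arrays, against 3.26 over all arrays.

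HXT3, the other low-affinity carrier, had signals of 110.1, 103.6 and 65.0 with 0.75 g/L and of 1044.8, 822.4 and 1069.4 with 1 g/L. They were 1496.9, 1028.9 and 1192.7 with 1.5 g/L, 1057.6, 1276.8 and 1442.1 with 3 g/L, and 1240.8, 1179.5 and 1475.3 with 5 g/L. The 0.75 g/L arrays lay far below the other 12, and neighbouring concentrations from 1 g/L up overlapped, though the 5 g/L arrays lay wholly above those at 1 g/L. HXT3 averaged 979 ± 136 at 1 g/L and 92.9 ± 24.4 at 0.75 g/L (SD, n = 3 each), a 10.7-fold rise (log2 difference 3.43 ± 0.22, SE, adjusted p = 6.85e-08). The whole span of 5 over 0.75 g/L was 14.3-fold (3.84 ± 0.22, adjusted p = 3.42e-08). From 1 g/L up no pair of concentrations passed. The difference of 5 over 1 g/L was 0.41 log2 (95% confidence interval -0.06 to 0.88, adjusted p = 0.197), and that of 5 over 3 g/L 0.05 (-0.42 to 0.52).

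HXT2, a carrier induced by low glucose, had signals of 44.7, 31.5 and 48.9 with 0.75 g/L, 220.0, 131.2 and 79.9 with 1 g/L, and 137.8, 206.8 and 149.7 with 1.5 g/L. It had 180.3, 247.6 and 184.0 with 3 g/L and 153.3, 188.5 and 183.9 with 5 g/L. As for HXT3, the 0.75 g/L arrays lay below all others, and here all the remaining groups overlapped. The 1 g/L arrays spread more widely than those of any other concentration (SD 70.9). HXT2 averaged 144 ± 70.9 at 1 g/L and 41.7 ± 9.1 at 0.75 g/L, a 3.22-fold rise (1.69 ± 0.31 log2, SE, adjusted p = 0.000639). The 6 pairs of concentrations from 1 to 5 g/L did not pass, and the difference of 5 over 1 g/L was 0.40 log2 (95% confidence interval -0.26 to 1.06, adjusted p = 0.379). Without 1 g/L replicate 1, 3 over 1 g/L passed (0.98 log2, adjusted p = 0.0319).

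All arrays at 0.75 g/L were in run A, all at 1 g/L in run D and all at 1.5 g/L in run C. Run D held nothing else, so for every HXT gene the run and the concentration cannot be told apart in the steps of 1 over 0.75 g/L and of 1.5 over 1 g/L. Nor did any run hold both 1.5 and 3 g/L arrays. Within run A, the 3 g/L array stood above the 0.75 g/L arrays by 3.55 log2 for HXT3 and by 2.14 for HXT2, against 3.79 and 2.30 over all arrays of both groups.

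HXT4, also induced by low glucose, had signals of 176.4, 160.0 and 152.5 with 0.75 g/L and of 159.2, 344.8 and 352.8 with 1 g/L. They were 256.8, 177.0 and 193.1 with 1.5 g/L, 161.9, 187.4 and 182.2 with 3 g/L, and 110.2, 185.6 and 125.5 with 5 g/L. Replicate 1 at 1 g/L sat with the 0.75 g/L arrays, apart from the other two of its group. HXT4 missed the threshold in the F-test (adjusted p = 0.0746). Without that array it passed (adjusted p = 0.00309), and the difference of 1 over 0.75 g/L was then 1.10 log2 (adjusted p = 0.00216) in place of 0.72 ± 0.28 (SE, adjusted p = 0.0576). Over the 27 alternative settings the adjusted p of the F-test ran from 0.00309 to 0.206 and passed in 6, among them quantile normalization (0.0315) and median scaling (0.0419). Of the 10 pairs of concentrations 1 passed: HXT4 was lower at 5 g/L than at 1 g/L, 140 ± 39.9 against 286 ± 110 (SD, n = 3 each), a fall of 0.97 ± 0.28 log2 (SE, adjusted p = 0.0219). The groups overlapped, and the call was lost without either of the 2 higher 1 g/L arrays (adjusted p = 0.0839 without replicate 2, 0.0928 without replicate 3) and without 5 g/L replicate 1 (0.091) or 3 (0.0712).

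HXT5, the carrier of slow growth, had signals of 40.5, 41.1 and 36.7 with 0.75 g/L and of 13.3, 11.7 and 13 with 1 g/L, the last all within background. They were 22.1, 19.9 and 20.2 with 1.5 g/L, 41.4, 47.6 and 63.3 with 3 g/L, and 168.0, 204.4 and 202.6 with 5 g/L. No concentration overlapped another: from lowest to highest the groups stood at 1, 1.5, 0.75, 3 and 5 g/L. In that order, 1.5 and 1 g/L did not differ past the threshold (0.71 log2, 95% confidence interval 0.36 to 1.06, adjusted p = 0.0714). That pair passed with quantile normalization (adjusted p = 0.0322) and with the filter at the 50th percentile (0.0326). Nor did 3 and 0.75 g/L differ past the threshold (0.34 log2, 95% confidence interval -0.01 to 0.69, adjusted p = 0.121). HXT5 fell at least 2.92-fold at 1 g/L relative to 0.75 g/L (adjusted p = 3.29e-06). It was at least 14.1-fold higher at 5 than at 1 g/L (adjusted p = 2.03e-09), and 4.85-fold higher at 5 than at 0.75 g/L, 192 ± 20.5 against 39.4 ± 2.4 (adjusted p = 1.72e-07). The step of 5 over 3 g/L was 1.93 ± 0.16 log2 (SE, adjusted p = 3.18e-05), and run B alone gave 1.76 for it with 2 arrays each.

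The probe sets of HXT6 and HXT7, the high-affinity pair, do not separate the genes, and their signals followed each other closely. HXT6 had 2446.9, 2558.4 and 2399.6 with 0.75 g/L, 1435.4, 884.4 and 1434.7 with 1 g/L, 685.0, 600.4 and 693.3 with 1.5 g/L, 308.0, 416.3 and 436.7 with 3 g/L, and 269.8, 264.1 and 316.8 with 5 g/L. HXT7 had 1956.7, 1824.6 and 1871.2 with 0.75 g/L, 1025.3, 746.4 and 989.7 with 1 g/L, 621.0, 515.7 and 535.0 with 1.5 g/L, 259.2, 315.9 and 327.9 with 3 g/L, and 237.3, 211.3 and 278.4 with 5 g/L. For both, each group lay wholly below the one before it, except that the 5 and 3 g/L arrays overlapped. HXT6 was 8.73-fold lower at 5 than at 0.75 g/L (a fall of 3.13 ± 0.20 log2, SE, adjusted p = 6.29e-08) and HXT7 7.82-fold lower (a fall of 2.97 ± 0.17, adjusted p = 3e-08).

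The fall at 1 relative to 0.75 g/L was 2.02-fold for HXT6 (adjusted p = 0.00109) and 2.07-fold for HXT7 (adjusted p = 0.000216). From 1 to 1.5 g/L neither probe set passed, with log2 differences of -0.89 for HXT6 (95% confidence interval -1.31 to -0.47, adjusted p = 0.0617) and -0.71 for HXT7 (-1.07 to -0.36, adjusted p = 0.075). From 1.5 to 3 g/L HXT7 fell by 0.89 ± 0.17 log2 (SE, adjusted p = 0.00928). HXT6 fell there by 0.78 ± 0.20 (adjusted p = 0.0407), a call lost in 16 of 27 other settings, the fit with the replicate number as a block among them (adjusted p = 0.0548). Between 3 and 5 g/L neither passed (adjusted p = 0.518 for HXT6 and 0.621 for HXT7). Within run A the 3 g/L array differed from the 0.75 g/L arrays by -3.00 log2 for HXT6 and -2.86 for HXT7, against -2.69 and -2.65 over all arrays of both groups.

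The steps between neighbouring concentrations differed in how many of the HXT probe sets passed. They span different ratios of mannose, and p-values were adjusted within each pair, so these counts do not compare the size of the changes. In 1 against 0.75 g/L 6 of 7 passed (HXT1, HXT2 and HXT3 higher, HXT5, HXT6 and HXT7 lower), where 37.4% of all probe sets did. In 1.5 against 1 g/L 1 passed, HXT1, with 0.402% of all probe sets. HXT5, HXT6 and HXT7 missed there (adjusted p = 0.0714, 0.0617 and 0.075), with log2 differences of 0.71, -0.89 and -0.71. HXT6 passed in 3 against 1.5 g/L with a smaller difference, -0.78. In 3 against 1.5 g/L 4 passed (HXT1 and HXT5 higher, HXT6 and HXT7 lower), with 4.10% of all probe sets. In 5 against 3 g/L 1 passed, HXT5, with 0.977% of all. The comparison of 5 with 0.75 g/L called 4 of 7 higher and 2 lower (22.3% and 13.4% of all probe sets, or 1549 and 931, a split that was 1280 and 1240 after quantile normalization and 997 and 1642 after median scaling), and its median log2 difference was 2.09 over the 7 and 0.13 over all probe sets. Over the 10 pairs of concentrations 42 of 70 comparisons of an HXT probe set passed, 23 higher and 19 lower with more mannose, where 12.0% of all were higher and 8.01% lower. These pairs share groups and are not independent. HXT6 and HXT7, whose signals cannot be separated, are counted as 2 probe sets throughout. Each gave 8 of the lower calls, and they were the 2 called lower in 5 against 0.75 g/L. HXT1 passed in 9 of its 10 pairs, HXT5, HXT6 and HXT7 in 8 each, HXT2 and HXT3 in 4 each, and HXT4 in 1.

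**Figure D2:**
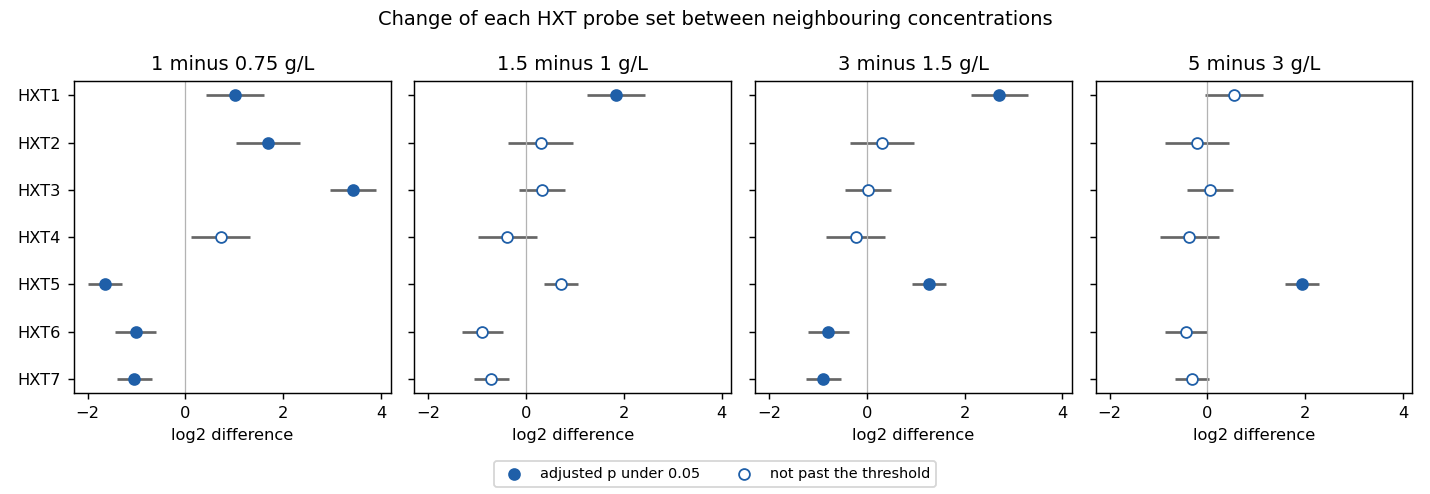
Log2 difference of each HXT probe set between neighbouring concentrations, higher minus lower mannose, with its 95% confidence interval; filled points passed at an adjusted p under 0.05. The first step has 6 filled points on both sides of 0, the second 1 (HXT1), the third 4 and the last 1 (HXT5). HXT1 at 0.75 g/L and HXT5 at 1 g/L are within background, so the steps that involve them are drawn at fitted values where the size is known only as a bound.

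A straight line on log2 mannose did not describe most of the family. The test of departure from a line passed for 6 of 7 HXT probe sets, all but HXT4 (adjusted p = 0.143), and for 31.0% of all probe sets. It was lowest for HXT5 (adjusted p = 5.56e-07) and HXT3 (6.09e-07) and highest, among those that passed, for HXT6 (0.0152). Without the 5 arrays of uncompleted fluidics steps, which include all arrays at 0.75 g/L, it passed for 0 of 7, with adjusted p from 0.347 to 0.944. In the same setting HXT2 and HXT3 no longer passed the F-test of any difference (adjusted p = 0.571 and 0.285). The share of all probe sets that passed in that setting was not counted, so these losses may not be particular to HXT genes.

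The centred profiles, each the 5 group means of log2 signal minus their own mean, show how unlike each other the members were. The root mean square difference between the centred profiles of HXT6 and HXT7 was 0.08 log2. The next closest pair was HXT2 and HXT3 at 0.68, and the farthest was HXT1 and HXT6 at 3.53. Of the genes near each other in a cluster, HXT6 and HXT7 were the closest pair, while HXT1 and HXT5 differed by 1.75, HXT1 and HXT4 by 2.60 and HXT3 and HXT6 by 2.50. The closeness of HXT6 and HXT7 cannot be read as the genes changing together, since their probe sets do not separate them. These distances are descriptions of group means, without a test, and those of HXT1 and HXT5 take in a group within background.

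**Figure D3:**
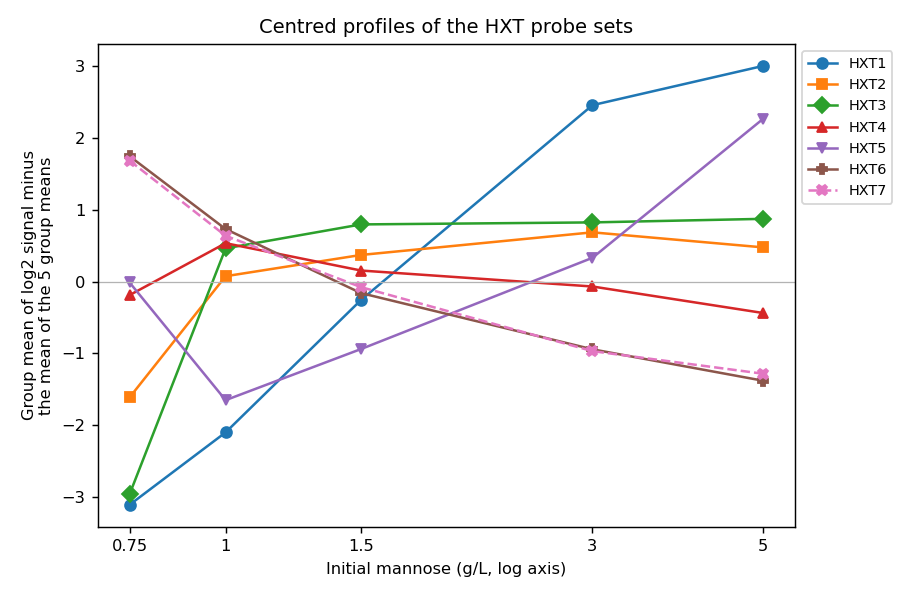
Group mean of log2 signal of each HXT probe set minus the mean of its 5 group means (vertical axis, log2) against initial mannose (horizontal axis, g/L, log scale). HXT6 and HXT7 lie on each other, HXT2 and HXT3 level off from 1 g/L, and HXT5 has its lowest point at 1 g/L.

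The slope on log2 mannose over all 15 arrays passed for 6 of 7: HXT1, HXT2, HXT3 and HXT5 were higher with mannose and HXT6 and HXT7 lower. Of all probe sets 14.3% were called higher (993) and 9.37% lower (652), a split that was 771 and 885 after quantile normalization and 586 and 1147 after median scaling. Median scaling placed the median log2 difference of all probe sets for 5 against 0.75 g/L at -0.15, in place of 0.13 as deposited, and the direction of each HXT slope was the same under both scalings. HXT6 and HXT7 fell by 1.08 ± 0.09 and 1.03 ± 0.09 log2 per doubling (SE, adjusted p = 1.01e-06 and 8.11e-07). Since these signals cannot be separated, their calls are not independent. HXT5 rose by 1.03 ± 0.21 (adjusted p = 0.00248), HXT3 by 0.99 ± 0.28 (0.0176) and HXT2 by 0.61 ± 0.16 (0.015). HXT4 had a slope of -0.19 ± 0.11 and did not pass (0.217).

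Which concentrations entered the fit changed these slopes. Without the 0.75 g/L arrays the slope of HXT3 was 0.15 (adjusted p = 0.167) and that of HXT2 0.19 (0.279), neither of which passed. HXT4 then passed downward (-0.39, adjusted p = 0.0202), and HXT5 had a slope of 1.63 (2.1e-07). Without the 5 g/L arrays HXT5 had a slope of 0.43 and did not pass (adjusted p = 0.311). HXT1, HXT6 and HXT7 passed with either end left out, HXT1 with slopes of 2.26 and 2.82, HXT6 with -0.88 and -1.29 and HXT7 with -0.83 and -1.26. With the fluidics run as a block, which uses differences within runs alone, HXT2 lost its call (0.55, adjusted p = 0.11) and the other 5 that had passed still did.

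**Figure D4:**
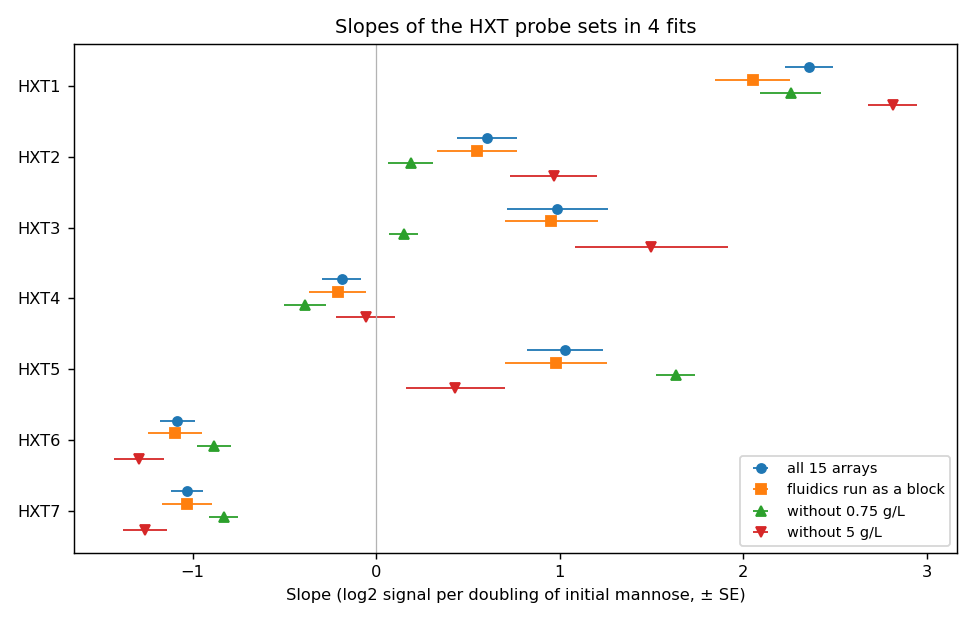
Slope of each HXT probe set on log2 initial mannose (horizontal axis, log2 signal per doubling, with its standard error) over all arrays, with the fluidics run as a block, without the 0.75 g/L arrays and without the 5 g/L arrays. HXT2 and HXT3 come close to 0 without 0.75 g/L, and HXT5 moves to 1.63 without 0.75 g/L and to 0.43 without 5 g/L.

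The other members of the family gave little signal. HXT8, HXT10 and HXT14 lay within background on all 15 arrays, with highest signals of 9.6, 6.7 and 3.6, and were below the filter. GAL2, the galactose permease of this family, was within background on 14 of 15 arrays and did not pass (F-test adjusted p = 0.538). A further 3 probe sets carry several HXT symbols, and their highest signals, 12.5, 10.6 and 6.7, were within background as well.

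Genes of the sensing pathway that acts on HXT promoters changed in part. In the list of 10 genes acting through Rgt1, 5 differed among the concentrations by the F-test, near the 46.5% of all probe sets. In the trend 0 rose, 3 fell, SNF3 among them, and 7 did not pass (14.3% of all probe sets rose and 9.37% fell), with a median slope of -0.16 against 0.02 over all probe sets. MTH1, which holds Rgt1 in its repressing state, averaged 20.8 ± 4.3, 34.7 ± 8.7, 15.6 ± 2.5, 11.5 ± 2.5 and 13.3 ± 4.5 from 0.75 to 5 g/L (SD, n = 3 each; F-test adjusted p = 0.00155), highest at 1 g/L and near or within background from 1.5 g/L. STD1, its paralog, averaged 71.8 ± 13.4 at 5 g/L and 96.5 ± 5.6 at 0.75 g/L (adjusted p = 0.0377 for this pair, 0.0101 in the F-test). RGT1, the repressor itself, had its lowest mean at 3 g/L, 71.2 ± 11.6, against its highest at 0.75 g/L, 120 ± 5.3 (F-test adjusted p = 0.0043). YCK2, a casein kinase at the membrane, passed the F-test (adjusted p = 0.0187), with its lowest mean at 3 g/L, 46.1 ± 10.8, against its highest at 1.5 g/L, 72.8 ± 9.7, while 5 against 0.75 g/L did not pass (0.222). Of the sensor genes, SNF3 fell in the trend (adjusted p = 0.0104) but was above background on 1 array only, and RGT2, at 17.9 to 29.5, did not pass (0.527).

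In the list of 10 genes of the main glucose repression pathway 9 were tested and 5 differed by the F-test, near the 46.5% of all. In the trend 1 rose, 3 fell and 5 did not pass (14.3% and 9.37% of all rose and fell), with a median slope of -0.17. MIG2, a repressor whose own gene is known to be induced by glucose, had 8.4, 9.4 and 15.3 with 0.75 g/L and 34.1, 47.3 and 33.3 with 1 g/L. It then stayed between 37.9 and 59.7 on the other 9 arrays, so it stood apart at 0.75 g/L as HXT2 and HXT3 did, with 2 of its 3 arrays there within background (F-test adjusted p = 5.35e-06). MIG1, the main repressor of the pathway, averaged 20.7 ± 4.2 at 0.75 g/L, 39.2 ± 3.2 at 1 g/L and 27.1 ± 4.3 at 5 g/L (F-test adjusted p = 0.00206). SIP2 and GAL83, beta subunits of the Snf1 kinase complex, averaged 25.1 ± 7.4 and 64.8 ± 4.4 at 5 g/L, against 53.4 ± 3.9 and 146 ± 17.7 at 0.75 g/L (adjusted p = 0.00128 and 0.000848 for this pair, 0.00371 and 0.00515 in the F-test). GLC7, of the phosphatase that opposes Snf1, has a brighter probe set that passed the F-test (adjusted p = 0.024) and a dimmer one that did not (0.125). Without the 5 arrays of uncompleted fluidics steps, and so without 0.75 g/L, RGT1, YCK2, MIG1, MIG2, SIP2, GAL83 and GLK1 no longer passed the F-test (adjusted p from 0.0822 to 0.485). The share of all probe sets passing in that setting was not counted.

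Genes of hexose phosphorylation, the step after uptake, fell with mannose: 4 of 4 passed the F-test (46.5% of all probe sets) and 4 of 4 were lower in the trend (9.37% of all), with a median slope of -0.65. HXK1, a hexokinase repressed by glucose, had 2311.4, 2483.8 and 2625.6 with 0.75 g/L, 102.5 to 259.1 at 3 g/L, and 206.2, 254.9 and 232.2 with 5 g/L (F-test adjusted p = 6.53e-07). EMI2, a relative of glucokinase, averaged 864 ± 9.3 at 0.75 g/L, 249 ± 23.2 at 1 g/L and 154 ± 17.8 at 5 g/L (F-test adjusted p = 2.91e-07). GLK1, glucokinase, averaged 763 ± 88.1 at 5 g/L and 2424 ± 223 at 0.75 g/L (adjusted p = 1.21e-05 for this pair, 4.3e-05 in the F-test). HXK2, the hexokinase of cells with plentiful glucose, had its lowest mean at 5 g/L, 581 ± 76.9, against its highest at 1 g/L, 1135 ± 136 (F-test adjusted p = 0.000554). Its mean at 0.75 g/L was 863 ± 40.2, so unlike HXK1, EMI2 and GLK1 it was not highest there.

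**Figure D5:**
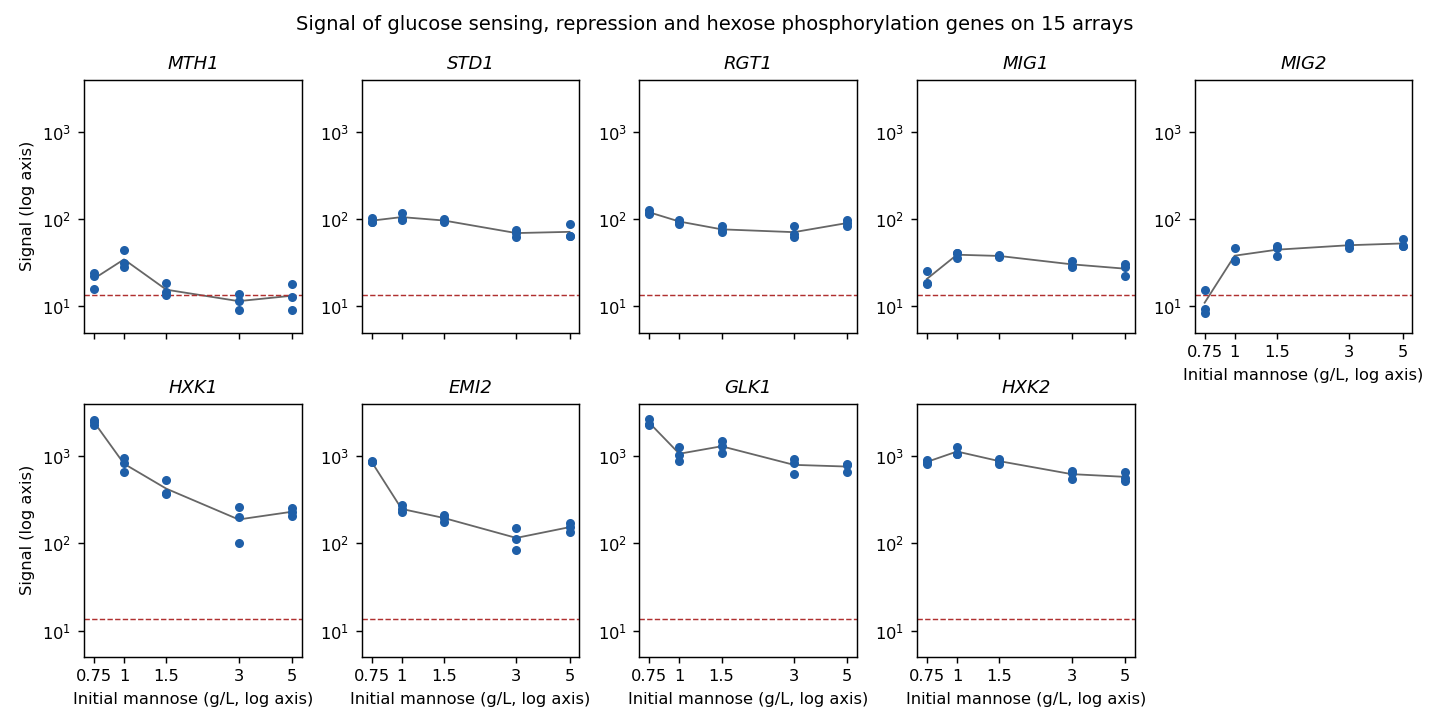
Signal (vertical axis, log scale) against initial mannose (horizontal axis, g/L, log scale) for genes of glucose sensing and repression and of hexose phosphorylation, with a point for each of the 15 arrays, a line through the 5 group means and the background of 13.5 dashed. MIG2 stands apart at 0.75 g/L, and HXK1 and EMI2 are highest there.

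The profiles closest to each HXT gene were sought among 5689 tested probe sets with 1 symbol, by the root mean square difference of centred group means over the 5 concentrations. HXT3 was closest to AAH1, adenine deaminase (0.09 log2), and RSA4, of large ribosomal subunit assembly (0.11). HXT2 was closest to HGH1 (0.04) and RRS1, of ribosome biogenesis (0.06). HGH1 averaged 75.3 ± 34.5 at 5 g/L (SD), and the order of such close profiles was not tested. HXT1 was closest to PRM5, a pheromone-regulated membrane protein (0.49), and NCA3, of the SUN family (0.52). HXT5 was closest to YKL107W (0.33) and ROG3 (0.34), whose signals lay within background on 12 and 7 of the 15 arrays. HXT6 and HXT7, whose signals cannot be separated, shared their closest profiles, CIP1 (0.30 and 0.27) and EEB1, an ethyl ester synthase (0.37 and 0.31). CIP1 averaged 29.4 ± 7.1 at 5 g/L and 169 ± 15.3 at 0.75 g/L. PRM5 lay within background on 6 of the 15 arrays. AAH1, RSA4 and RRS1 did so on 3 each, the whole 0.75 g/L group, with means there of 3.4, 3.1 and 6.9. The size of their drop at 0.75 g/L is therefore not measured, and their distances to HXT3 and HXT2 rest on it. PRM5 averaged 5.2 and 8.3 at 0.75 and 1 g/L, and YKL107W and ROG3 averaged 0.57 and 7.1 at 1 g/L. HXT1 at 0.75 g/L and HXT5 at 1 g/L were within background as well. The distances of HXT1 and HXT5 to their closest profiles therefore also rest in part on signals that were not measured.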

How the data were processed

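Total RNA was hybridised to 15 Affymetrix YG_S98 arrays of 1 colour, per the labels. The authors deposited a table of linear signal intensity for 9335 probe sets. The steps that produced these values are not stated there. The trimmed means (2% at each end) were 99.94 to 99.96, so arrays were used as deposited. The other files deposited hold array records and no expression values, and gave stations, times and messages.

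Signals under the 10th percentile (1.5) were set to it and log2 transformed. The tests used 6957 probe sets, those that were not among 60 controls and whose mean reached the 25th percentile. limma 3.58.1 in R 4.3.3 (lmFit, eBayes) was fitted to all 15 arrays with Benjamini-Hochberg adjustment over all of them. The tests were a slope on log2 mannose, an F-test over the 5 concentrations, an F-test of departure from the line, and 10 pairs. Errors are SD for signals and SE for log2 values. Where all arrays of a group were within background, folds are bounds against 13.5.

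Members, lists and tests were chosen with earlier results of these data known. Named are all members and PMI40, up to 4 genes of a list with the smallest adjusted p in the F-test, any other HXT gene or GAL2, and the 2 closest profiles of each member that passed. SNF3, RGT2 and GLC7 were named after their values were seen. For a gene with several probe sets the brightest was used. Gene order came from RefSeq (R64). The code was tested on simulated data. Replicate numbers did not pair the arrays: of 30 correlations between arrays with 1 number in different groups, 2 were above 0.1. Precision is limited by having 3 arrays a concentration.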

Additional observations from a re-analysis of the deposited data

How the results depend on the processing

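Each test was repeated under up to 31 settings: other floors, filters, scalings and variance models, blocks for replicate number, fluidics run or station, other scales of mannose, and arrays or concentrations left out. Only for the trend did the run block keep to differences within runs. In the other tests the run entered as a shared correlation among its arrays, so groups from different runs were still compared. No run held both 5 and 0.75 g/L arrays. The count of HXT probe sets past the threshold was 4 to 6 of 7 for the trend, 6 of 7 throughout for 5 against 0.75 g/L, and 40 to 46 of 70 over the 10 pairs. For any difference it was 4 to 7. With each array left out in turn these counts were 6, 6, 40 to 45 and 6 to 7, and that of departure from a line was 6 to 7. Without the arrays of uncompleted fluidics steps departure from a line was called for 0 of the 7 HXT probe sets. The share of all probe sets called there was not counted. That setting has no 0.75 g/L array, so it gives no value for 5 against 0.75 g/L or for all 10 pairs. No HXT result that had passed changed sign. With the replicate block the counts stayed at 6 for the trend and for 5 against 0.75 g/L, and the call of HXT6 for 3 against 1.5 g/L was lost (adjusted p = 0.0548). 3 of 15 arrays correlated best with their own replicate number. The lowest signals limit HXT1 at 0.75 g/L and HXT5 at 1 g/L to bounds.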

Other observations

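Some carriers of other sugars and polyols changed over the same arrays. MAL11, a maltose and alpha-glucoside permease, averaged 576 ± 57.2 at 0.75 g/L, 105 ± 7.3 at 1 g/L, 84.6 ± 9.5 at 3 g/L and 177 ± 35.5 at 5 g/L (SD, n = 3 each; limma F-test adjusted p = 7.05e-07). MAL31, a maltose permease, averaged 82.7 ± 7.8 at 0.75 g/L, 22.3 ± 4.9 at 3 g/L, its lowest, and 40.1 ± 6.7 at 5 g/L (adjusted p = 1.84e-05). Both stood highest on the 0.75 g/L arrays, where HXT2 and HXT3 stood lowest. ITR1, a myo-inositol transporter, averaged 494 ± 72.8 at 0.75 g/L, 1186 ± 179 at 1 g/L, its highest, and 510 ± 42.3 at 5 g/L (adjusted p = 0.00115). Without the 5 arrays of uncompleted fluidics steps, which include those at 0.75 g/L, none of these 3 genes passed (adjusted p from 0.0702 to 0.23). How many of all probe sets passed in that setting was not counted. Of this list of 7 genes 4 were tested, and 3 differed by the F-test (46.5% of all probe sets did). In the trend 0 rose and 0 fell, where 14.3% of all probe sets rose and 9.37% fell.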
